A study of Mus musculus with 3 samples.

Results

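Malat1-rich barcodes are droplets of the bladder urothelium libraries in which at least 10% of all RNA molecules came from 1 nuclear long non-coding RNA, Malat1. They were found in 3 droplet-based 3' single-cell RNA libraries of mouse bladder lining (10x Genomics), of which 1 came from wild-type mice, 1 from Lpar6 knockout mice and 1 from Cab39l knockout mice. The cells of 15 mice were pooled into each library. No animal can be followed on its own, no group has a replicate, and no difference below was tested. All 3 were prepared in the same way, by filling the bladder with trypsin, straining the suspension and removing red blood cells by density centrifugation. Strain, sex, age and the deleted part of each gene are not given in the labels. A unique molecular identifier (UMI) marks 1 captured RNA molecule. A barcode counted as Malat1-rich when it held at least 500 genes, when Malat1 made up at least 10% of its UMIs, and when Cd79a, Cd3e and Hbb-bs, which mark B cells, T cells and red cells, together made up less than 1%. This exclusion removed 0 barcodes. The members were therefore chosen by their measured Malat1 share, so their Malat1 level is a description and not a finding, and everything set beside it comes from the same contrast. The rule took 772 of the 22078 barcodes with at least 500 genes: 511 in wild type, 201 with the Lpar6 knockout and 60 with the Cab39l knockout. They were set beside 13606 comparison barcodes of the same libraries with at least 5000 UMIs and under 3% Malat1, namely 2670, 4947 and 5989. Where 3 values follow one another below, they stand in the order wild type, Lpar6 knockout, Cab39l knockout.

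Malat1 is a long transcript that stays in the nucleus and gathers at nuclear speckles, compartments rich in splicing factors. Neat1 is the scaffold of paraspeckles, nuclear bodies that lie beside speckles. Messenger RNAs of ribosomal proteins and housekeeping enzymes are mostly cytoplasmic, and the transcripts of the mitochondrial genome are held inside mitochondria, so the shares of these groups in a droplet are often read as a rough guide to what part of a cell it caught. The urothelium consists of basal, intermediate and umbrella cells, and the uroplakins, membrane proteins that build the plaques of the umbrella cell surface, mark its upper layers.

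The 3' ends of Malat1 and Neat1 are shown because libraries of this kind are primed on runs of A, and Malat1 and the long form of Neat1 carry such a run in the genome rather than only in an added tail. In both, stretches rich in U fold back on the run of A into a triple helix that protects the processed end. In the GENCODE vM21 transcripts (GRCm38, the build that the mm10 files use), the piece of Malat1-201 that ends with this run lies at chr19:5795988-5796087 on the minus strand, and 298 further bases of the 6983-base transcript follow it. The last 100 bases of the 20771-base Neat1-201 lie at chr19:5824708-5824807, also on the minus strand. Both genes consist of a single exon and code for no protein. Written 5′ to 3′ as DNA, capitals mark every match to TTTTNCTTTT (N is any base, this strand only) and the A-rich run:
Malat1: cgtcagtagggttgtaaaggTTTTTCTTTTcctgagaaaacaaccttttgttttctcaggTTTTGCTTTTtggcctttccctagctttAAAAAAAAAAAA
Neat1: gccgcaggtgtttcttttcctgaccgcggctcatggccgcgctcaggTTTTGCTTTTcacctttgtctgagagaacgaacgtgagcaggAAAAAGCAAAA

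The Malat1 piece holds 2 such U-rich matches and ends in 12 A bases, and the Neat1 piece holds 1 match and ends in a run of A broken by a GC pair. For comparison, TTTTNCTTTT occurs in the last 100 bases of the longest transcript of 230 of 30766 genes (0.748%), and of 1.78% when either strand is searched. An unbroken run of 12 A bases lies anywhere in the longest transcript of 2370 of 30934 genes (7.66%). These matches describe the letters and say nothing about which molecules were primed there.

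Malat1-rich barcodes were most frequent in the wild-type library and least frequent in the Cab39l knockout library. They were 7.80% (exact 95% binomial interval 7.17 to 8.48) of the wild-type barcodes with at least 500 genes, 2.78% (2.42 to 3.19) of those from Lpar6 knockout mice and 0.722% (0.551 to 0.928) of those from Cab39l knockout mice. These intervals, like all given here, cover counting error only. The order was wild type, Lpar6 knockout, Cab39l knockout, with no overlap of the intervals, but 1 library per group cannot separate genotype from the way each suspension was made. Of all deposited barcodes the shares were 6.32, 2.42 and 0.638%. The Malat1-rich barcodes together held 3365316, 656268 and 188155 UMIs, 3.30, 0.471 and 0.107% of the libraries' totals, so the Cab39l knockout values carry the largest counting error. Between libraries, 19, 16 and 18 barcode sequences were shared (wild type with Lpar6 knockout, wild type with Cab39l knockout, and the knockouts with each other), and 0 of them were Malat1-rich in both.

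**Figure D1:**
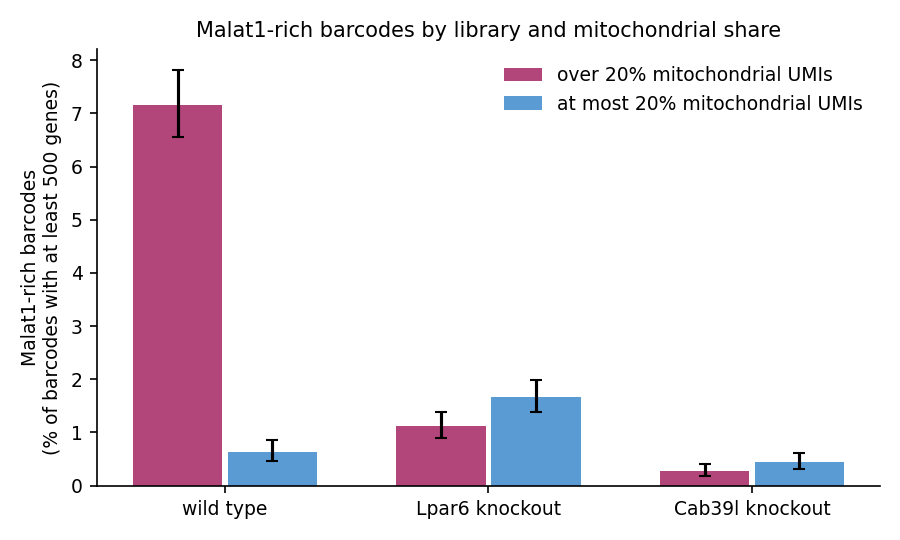
Percent of barcodes with at least 500 genes (y axis, linear from 0) that were Malat1-rich in each library, drawn apart for barcodes above 20% mitochondrial UMIs and for those at or below it, with exact 95% binomial intervals as error bars. Above 20% the wild-type bar (7.16%) is the highest of the 3, and at or below 20% the Lpar6 knockout bar (1.66%) is.

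These barcodes, labelled low in cytoplasm, were of 2 kinds that differed in mitochondrial RNA. Both kinds held a lower share of ribosomal protein transcripts than the comparison barcodes, and whether the label holds was not tested. In the wild-type library 469 of the 511 Malat1-rich barcodes (91.8%) had more than 20% mitochondrial UMIs, against 81 of 201 (40.3%) and 23 of 60 (38.3%) with the Lpar6 and the Cab39l knockout. The median mitochondrial share was 33.0, 5.71 and 8.08%, beside 7.68, 6.29 and 6.24% in the comparison barcodes. The split at 20% was chosen after the distribution was seen, in which few barcodes fell between 10 and 20% (15, 9 and 6 barcodes). As a share of the barcodes with at least 500 genes, the high-mitochondrial kind made up 7.16% (6.55 to 7.81), 1.12% (0.892 to 1.39) and 0.277% (0.176 to 0.415). The low-mitochondrial kind made up 0.641% (0.463 to 0.866), 1.66% (1.38 to 1.98) and 0.445% (0.314 to 0.613). The first kind was thus ordered as the whole class was, while the second was most frequent in the Lpar6 knockout, and the wild-type and Cab39l knockout intervals of the second kind overlapped.

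**Figure D2:**
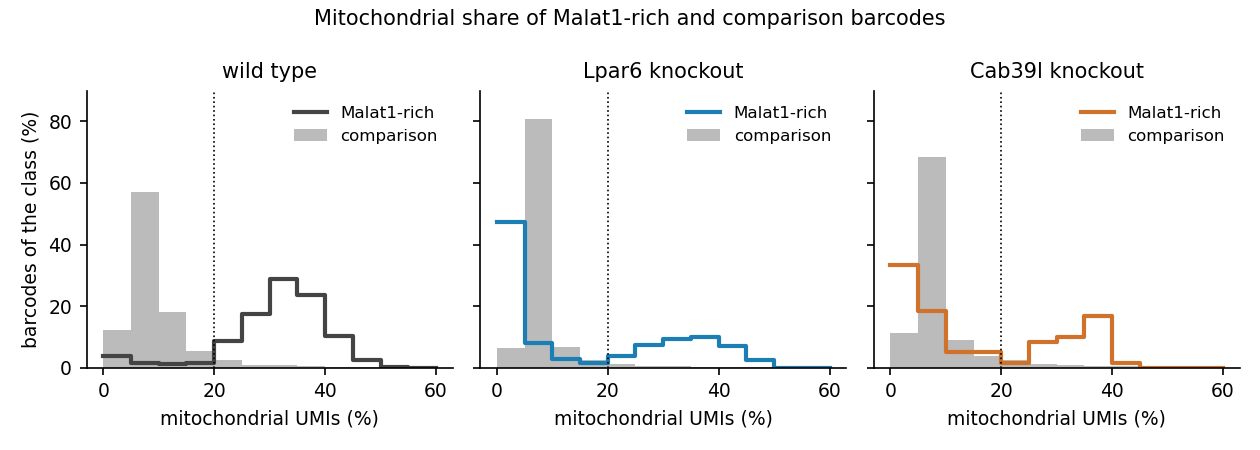
Percent of the barcodes of each class (y axis) by percent of UMIs from the mitochondrial genome (x axis), with Malat1-rich barcodes as lines, comparison barcodes as grey bars, one panel per library and a dotted line at 20%. Malat1-rich barcodes of both knockout libraries form 1 group mostly below 10% and 1 above 20%, and those of wild type lie mostly above 20%.

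Both kinds were shallow next to the comparison barcodes, and the low-mitochondrial kind was the shallower. Over all Malat1-rich barcodes the median depth was 6375, 2736 and 2373.5 UMIs, against 23190, 26849 and 27864 UMIs in the comparison barcodes. Median genes per barcode were 2041, 1333 and 1089, against 4658.5, 4386 and 4475. The low-mitochondrial barcodes had median mitochondrial shares of 5.49, 2.64 and 3.84%, below those of the comparison barcodes. They had median depths of 2350.5, 2155 and 1874 UMIs and median Malat1 shares of 13.2, 15.9 and 14.5%, and the high-mitochondrial ones 6637, 4571 and 5119 UMIs and 11.5, 11.02 and 11.1% Malat1. As shares of all UMIs, the highest Malat1 values therefore sat in the low-mitochondrial barcodes in all 3 libraries. Mitochondrial UMIs are part of that total and lower the Malat1 share where they are many. In the high-mitochondrial barcodes their median share was 33.7% in wild type and 34.5% with the Lpar6 knockout. The order of Malat1 among the other UMIs was not compared and may be the reverse. Malat1 reached 20% in 10, 36 and 5 barcodes, and their median mitochondrial share was 1.41, 2.58 and 2.24%.

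The threshold lay within a continuum of Malat1 shares. Between 9 and 10% Malat1 lay 187, 62 and 25 barcodes, and between 10 and 11% lay 183, 49 and 16. Just inside the threshold the median mitochondrial share was 33.3, 31.2 and 28.8%, and just outside it 32.0, 34.7 and 36.6%. Median ribosomal protein shares were 4.41, 6.90 and 10.6% inside and 4.69, 7.96 and 7.62% outside. Of the 2222, 1381 and 1654 barcodes above 20% mitochondrial UMIs, 21.1, 5.87 and 1.39% were Malat1-rich.

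Over bins of Malat1 share that covered all barcodes with at least 500 genes, the median share per barcode of 34 genes for splicing and nuclear speckle proteins climbed from 0.451, 0.340 and 0.353% of UMIs under 1% Malat1 to 2.65, 2.17 and 1.77% from 20% Malat1 upward. The median Neat1 share went from 0.0127, 0.00463 and 0.00589% to 0.280, 0.186 and 0.171%. The top bin is thinly filled, with 10, 36 and 5 barcodes. In the bin below it, from 10 to 20% Malat1 (501, 165 and 55 barcodes), the splicing genes took 1.43, 1.71 and 1.56%, also above every lower bin. Ribosomal protein transcripts went the other way, from 24.4% to 5.88% in wild type, from 32.6% to 10.5% with the Lpar6 knockout and from 32.9% to 11.1% with the Cab39l knockout. Mitochondrial transcripts followed neither course: they were highest at 33.1% between 10 and 20% Malat1 in wild type and at 33.8 and 34.3% between 5 and 10% Malat1 in the knockouts, and lowest, at 1.41 to 2.58%, in the top bin.

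**Figure D3:**
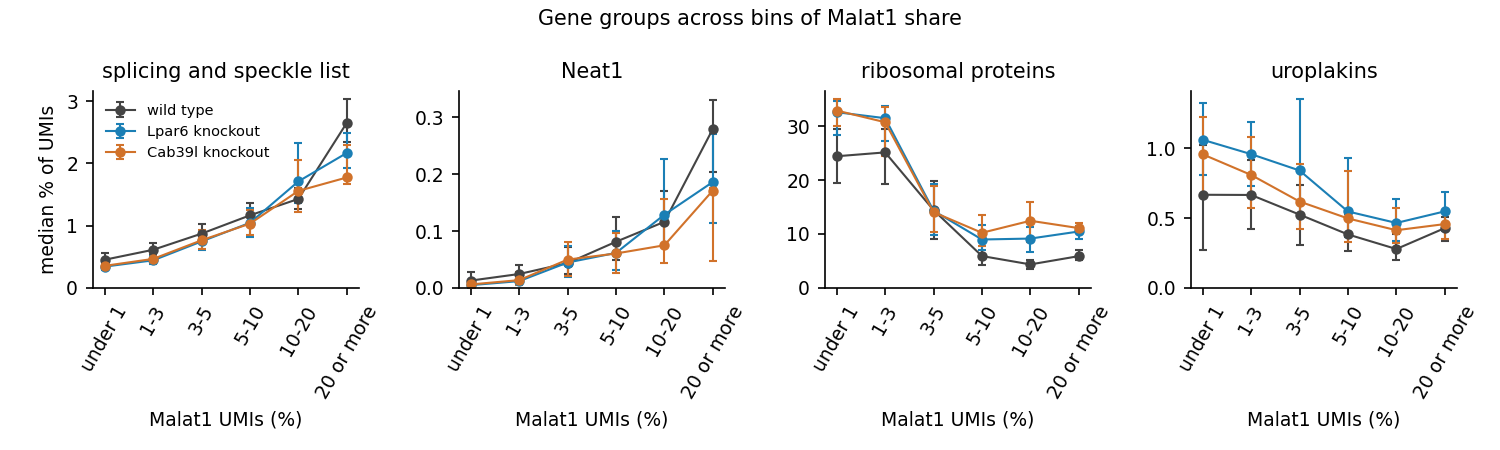
Median percent of UMIs per barcode (y axes, bars from the lower to the upper quartile) from splicing genes, Neat1, ribosomal protein genes and uroplakins in 6 bins of Malat1 share (x axis), one line per library, over all barcodes with at least 500 genes. Splicing genes and Neat1 are highest in the bin from 20% Malat1, and ribosomal protein genes are low in all bins from 5% upward.

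Of the 4 transcripts named as marks of this class, Neat1 and Lncpint stood high in every library and Meg3 did not. Levels are given as CPM, the UMIs of the summed barcodes scaled to a common total. Malat1, which chose the barcodes, was 118256, 142046 and 132364 CPM, against 16909, 10969 and 8973 CPM in the comparison barcodes. Neat1 was 1296 CPM (exact 95% Poisson interval 1258 to 1336), 1499 CPM (1407 to 1596) and 1100 CPM (955 to 1261), against 255, 112 and 111 CPM. All 3 Malat1-rich levels lay above all 3 comparison levels, with log2 ratios of (CPM + 1) of 2.34, 3.73 and 3.29. Lncpint, a long intergenic RNA induced by p53, was 190 CPM (175 to 205), 175 CPM (145 to 210) and 197 CPM (138 to 271), against 33.3, 17.1 and 16.6 CPM, with log2 ratios of 2.48, 3.28 and 3.49. Its levels in the Malat1-rich barcodes of the 3 libraries lay within each other's counting error.

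Meg3, an imprinted non-coding RNA, was 1.19, 463 and 760 CPM. These levels rested on very few barcodes: 1 of 511 in wild type with 4 UMIs, 5 of 201 with the Lpar6 knockout, at 88, 81, 71, 63 and 1 UMIs, and 1 of 60 with the Cab39l knockout, at 143 UMIs. Meg3 was thus no general mark of the class. The 4 Lpar6 knockout barcodes with at least 63 Meg3 UMIs held 36, 41, 61 and 113 uroplakin UMIs, and the Cab39l knockout one held 54.

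Other nuclear and non-coding transcripts were high as well. A gene was counted here as apart when it was at least 2-fold higher, or at least 2-fold lower, in all 3 libraries. Over the 5715 genes measured well enough (at least 50 UMIs over both groups and 20 CPM in the higher group in each library), 1141 were higher in the Malat1-rich barcodes, 20% of those measured, and 701 were lower, 12.3%. Of 48 listed nuclear and non-coding transcripts 29 are in the files and 15 passed this filter, of which 11 were higher and 0 lower, with median log2 ratios of 1.82, 2.93 and 2.93, beside medians of 0.12, 0.47 and 0.40 over all genes measured. The barcodes were selected on Malat1, so the list's count describes them and nothing more is read from it. It also depends on the scaling: with TMM factors, which lower every log2 ratio by 0.44, 0.89 and 0.80, 8 of 13 were higher and 1 was lower.

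Kcnq1ot1, an imprinted antisense RNA that silences genes on its own chromosome, was 470, 648 and 532 CPM, against 119, 84.2 and 69.1 CPM. Snhg11, a host gene of small nucleolar RNAs, was 630, 1798 and 1105 CPM, against 178, 204 and 124 CPM. Xist, the RNA that coats the inactive X chromosome of female cells, was 2324, 5612 and 3008 CPM, against 686, 578 and 357 CPM. It was present in 44.2, 70.1 and 38.3% of the Malat1-rich barcodes. For these 3 transcripts the Lpar6 knockout library was the highest of the Malat1-rich groups, and each library's Malat1-rich level exceeded its own comparison level, with log2 ratios between 1.76 and 3.28. Tsix, which runs antisense to Xist over the same stretch, was 69.2, 256 and 106 CPM against 11, 8.83 and 3.78 CPM, and Ftx, a non-coding neighbour of Xist, 35.4, 32.0 and 42.5 CPM against 5.65, 3.94 and 3.39 CPM. The sources used here do not say whether counting used the strand, so reads of Tsix and Xist, or of Kcnq1ot1 and the gene it overlaps, may not be told apart. Beyond this list, 22 of 41 measured genes annotated as lincRNA were higher and 4 lower, and 16 of 27 annotated as antisense were higher and 0 lower. With TMM factors these became 14 higher and 6 lower of 34, and 5 higher and 4 lower of 16. The filter asks for 20 CPM in the higher group only. Transcripts that are rare in the comparison barcodes, such as Tsix and Ftx, were therefore measured only because they were high in the Malat1-rich ones. Such counts of higher genes are in part set by the filter, here and in the other lists.

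Genes for the splicing apparatus and nuclear speckles were higher in the Malat1-rich barcodes. Of 34 listed genes all 34 were measured, 28 were higher in all 3 libraries and 0 lower, with median log2 ratios of 1.46, 2.28 and 2.11. Srrm2, a large scaffold protein of nuclear speckles, was 1159, 1150 and 920 CPM against 367, 279 and 256 CPM. Ddx5, an RNA helicase of the spliceosome and of transcription, was 1007, 1729 and 1424 CPM against 431, 348 and 365 CPM. Rsrp1, an arginine- and serine-rich protein of the splicing machinery, was 816, 1530 and 1414 CPM against 307, 212 and 217 CPM. The lowest of the Malat1-rich levels exceeded the highest comparison level for each of the 3 genes. In sum the 34 genes took 1.47, 1.82 and 1.63% of all UMIs against 0.561, 0.397 and 0.395%. With TMM factors 18 of the 34 were still higher and 0 lower.

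Chromatin regulators and genes that span long stretches of the genome, both of which have long and intron-rich units, were also higher. Of 28 genes listed as chromatin regulators, 15 were higher and 0 lower (median log2 1.10, 1.56 and 1.67), with TMM factors 5 of 27 higher. Among the 15 were Nsd1, a histone methyltransferase with log2 ratios of 1.84, 2.19 and 2.62, and Macf1, which encodes a cytoskeletal protein. Of the 60 listed long-span genes 29 were measured, of which 16 were higher and 0 lower (median log2 1.04, 1.63 and 1.74), with TMM factors 1 of 22 higher. Mecom, a zinc-finger transcription factor gene of long span, had log2 ratios of 1.42, 1.98 and 2.18. The long-span list took 0.359, 0.337 and 0.348% of UMIs against 0.173, 0.113 and 0.106%, so its summed share in the Malat1-rich barcodes was nearly the same in the 3 libraries, and the comparison barcodes of wild type were the highest of their kind.

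Ranked by the smallest of their 3 log2 ratios, the 12 genes at the high end were mt-Nd6, Ncapd3, Zfp407, Tsix, Lncpint, Rgs11, Ttc6, Ftx, Gm46218, Neat1, Paxbp1 and Ugt1a6a. mt-Nd6, the 1 protein gene on the light strand of the mitochondrial genome, led them with log2 ratios of 3.13, 3.06 and 2.66. Of the other mitochondrial genes, mt-Atp6, a subunit of the ATP synthase, had ratios of 2.02, 1.82 and 1.75. All 13 mitochondrially encoded protein genes were higher (median log2 1.998, 1.71 and 1.69), and together they made up 33.1, 22.1 and 22.1% of summed UMIs in wild type, with the Lpar6 knockout and with the Cab39l knockout, against 8.85, 7.003 and 7.34%. With barcodes above 20% mitochondrial UMIs removed from both groups the middle log2 ratio of the 3 libraries was -0.34, against 1.66 with them. That cut is made on the mitochondrial share itself, so the change describes the cut and no conclusion is drawn from it. With TMM factors 1 of the 13 remained higher. Against shallow barcodes (at least 500 genes, under 5000 UMIs and under 3% Malat1) the middle log2 ratio of mitochondrial UMIs was -0.12. The libraries differed in this: the median share per Malat1-rich and shallow barcode was 33.0 and 5.78% in wild type. With the Lpar6 knockout it was 5.71 and 9.30%. The shallow barcodes were not chosen by cell type, so cell type and depth cannot be told apart here.

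Transcripts of the cytosolic translation machinery were lower. Of 81 measured ribosomal protein genes 80 were lower in all 3 libraries and 0 higher, with median log2 ratios of -2.71, -1.97 and -1.65, and their sum was 4.25, 8.29 and 10.4% of UMIs against 26.2, 32.8 and 32.5%. The Malat1-rich wild-type library was the lowest of all 6 groups. Rplp1, a protein of the ribosomal stalk, was 996, 2281 and 2960 CPM against 6526, 9152 and 8978 CPM. Of 18 genes listed as cytosolic translation factors 15 were lower and 0 higher. One of the 15 was Eef1a1, the factor that delivers transfer RNAs to the ribosome, with log2 ratios of -1.84, -1.97 and -1.72. The 15 also include Nap1l1 and Npm1, which are not translation factors. With TMM factors all 81 ribosomal protein genes were lower, and with Malat1 and mitochondrial UMIs taken out of the totals 60 of 81 were.

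Metabolic housekeeping transcripts went the same way. Nuclear genes of oxidative phosphorylation, whose products join the mitochondrially encoded subunits, were lower in 16 of 22 and higher in 0, with median log2 ratios of -1.91, -1.46 and -1.23. Glycolytic and other abundant cytosolic enzymes were lower in 10 of 18 and higher in 0 (median -1.61, -1.50 and -1.29). Gstm1, a glutathione transferase, was 5880, 8382 and 8466 CPM against 23328, 23655 and 25111 CPM. Proteins that work at the endoplasmic reticulum were lower in 4 of 14 and higher in 0. In these 3 lists no gene was higher with TMM factors or with Malat1, or Malat1 and mitochondrial UMIs, left out of the totals. The lower ones then numbered between 7 and 21 of 22, between 7 and 16 of 18, and between 2 and 10 of 14. The mitochondrially encoded and the nuclear-encoded subunits of the respiratory chain thus stood on opposite sides, in wild type at 33.1% against 8.85% for the first and 0.259% against 0.936% for the second. The 12 genes at the low end of the ranking were Gm10076, Ost4, Med28, Lmo1, Tomm7, Elob, Gstp1, Ndufb6, Gabarap, Pam16, Skp1a and Pfn1. Gm10076, annotated as a predicted gene, had log2 ratios of -2.94, -2.42 and -2.18, and it may share reads with a ribosomal protein gene of similar sequence.

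Immediate early and stress genes, which respond quickly to tissue handling and to damage, had few members past 2-fold in every library, and the direction of the immediate early list's median depended on the scaling. Of 11 measured immediate early genes 1 was higher, Jun, a subunit of the AP-1 transcription factor (log2 1.06, 1.73 and 1.84), and 0 were lower, with list medians of 0.35, 1.04 and 0.35. With TMM factors 0 were higher and 1 lower, and the median turned negative in wild type and with the Cab39l knockout (-0.09, 0.17 and -0.45). Without Malat1 and mitochondrial UMIs in the totals 3 of 12 were higher and 0 lower, with medians of 0.95, 1.57 and 0.84. Of 9 stress and cell death genes 1 was higher, Mdm2, the ubiquitin ligase that restrains p53, and 1 lower, Hspb1, a small heat shock protein. With TMM factors 4 of 8 were lower.

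Transcript length separated higher from lower genes. By the annotated span of the gene, the fifth of genes with the shortest spans (0.204 to 8.08 kb) had median log2 ratios of -1.17, -0.80 and -0.82, and the fifth with the longest (69.8 to 2245 kb) 0.92, 1.29 and 1.28. Of the shortest 7.17% were higher and 33.0% lower, and of the longest 39.6% were higher and 1.31% lower. The step was larger by exonic length, the summed length of all annotated exons of a gene: medians went from -1.41, -1.10 and -1.06 up to 2.49 kb to 1.05, 1.55 and 1.49 from 8.63 kb. By that measure 2.89% of the shortest and 50.2% of the longest genes were higher. The difference between end bins was 2.09, 2.09 and 2.10 by span and 2.46, 2.65 and 2.56 by exonic length. Within genes of similar exonic length, intronic length moved the medians less: in wild type, over 3 bins of exonic length, each split into 3 bins of intronic length, they went from -1.32 to -0.88 with intronic length among the shortest genes and from 0.78 to 1.05 among the longest. The long-intron lists above therefore cannot be told apart from lists of long transcripts.

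**Figure D4:**
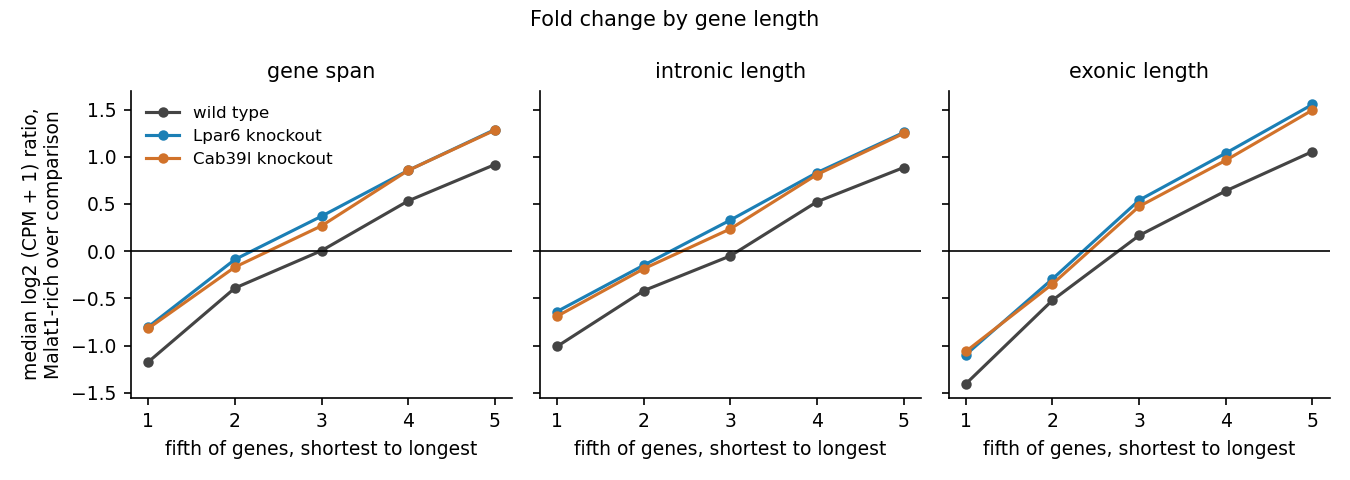
Median log2 ratio of Malat1-rich over comparison barcodes (y axis) in 5 bins of nearly equal gene number by gene span, intronic length and exonic length (x axis, shortest to longest), one line per library. All lines climb with length, and the exonic panel has the widest range, from -1.41 to 1.05 in wild type.

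Urothelial genes were present in the Malat1-rich barcodes. All 6 uroplakins had UMIs in wild type and 5 of 6 in either knockout (Upk3bl was at 0), and all 23 listed urothelial keratins, surface genes and transcription factors had UMIs in every library. In sum the uroplakins made up 0.328, 0.559 and 0.498% of UMIs, against 0.868, 1.09 and 1.04% in the comparison barcodes. Upk3a was 1518, 2804 and 2206 CPM against 4826, 6162 and 5391 CPM, and Upk1a 672, 1240 and 1318 CPM against 1873, 2761 and 2833 CPM. Upk1b, the partner of Upk3a in the plaque, was closer, at 683, 1158 and 1132 CPM against 1004, 1249 and 1431 CPM. Of 5 measured uroplakins 3 were lower in all libraries and 0 higher, and with Malat1 taken out of the totals 0 were. Against shallow comparison barcodes the middle log2 ratio of their sum was -0.47 in place of -1.06.

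Most urothelial keratins, transcription factors and other epithelial genes of this list passed in neither direction. Of 22 measured members 19 passed in neither, 2 were lower, the surface antigen gene Psca and Krt18, and 1 was higher, Trp63, with list medians of -0.33, 0.04 and -0.55. With TMM factors 8 were lower and 0 higher. Krt18, a keratin of simple epithelia, had log2 ratios of -1.81, -1.34 and -1.31, and Krt7 of -1.001, -0.92 and -0.74. Trp63 encodes p63, the transcription factor that maintains basal cells. After each barcode was thinned at random to 1700 UMIs, a Trp63 UMI was found in 37.2% (32.9 to 41.6), 48.6% (41.0 to 56.2) and 62.2% (46.5 to 76.2) of the Malat1-rich barcodes, against 21.1, 15.5 and 15.0% of the comparison barcodes. In lymphoid barcodes (at least 0.1% Cd79a and Cd3e UMIs), a cell type without p63, it was found in 1.97, 3.85 and 1.83%. Krt5, the keratin of the same basal cells, ran the other way, at 24.8, 14.3 and 20% against 33.8, 26.0 and 39.4%. Krt15, a further basal keratin, was at 48.8, 20 and 64.4% against 49.0, 17.7 and 56.7%. The basal genes thus did not move together. Trp63 also has a long span, and the length of Trp63 was not separated from its cell type.

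The thinning left out 19, 26 and 15 Malat1-rich barcodes with fewer UMIs (lymphoid barcodes: 28, 3 and 7). At equal depth a Neat1 UMI was found in 83.7% (80.2 to 86.9), 92.6% (87.6 to 96.0) and 64.4% (48.8 to 78.1) of the Malat1-rich barcodes, against 35.7, 18.5 and 19.3% of comparison and 14.5, 15.4 and 22.0% of lymphoid barcodes, and without thinning in 97.7, 94.5 and 88.3%. Lncpint was found in 25.2, 26.9 and 28.9% against 5.66, 3.50 and 3.22%, and Kcnq1ot1 in 51.6, 61.1 and 53.3% against 19.7, 13.0 and 11.3%. Upk3a was found in 85.6% (82.1 to 88.6), 98.3% (95.1 to 99.6) and 91.1% (78.8 to 97.5), against 94.5, 99.6 and 97.8%. Lymphoid barcodes, a cell type that should lack uroplakins, held it in 72.4% (64.5 to 79.3), 84.6% (65.1 to 95.6) and 74.3% (65.1 to 82.2). The part of free RNA and of doublets, which were kept, in these shares was not tested. For Upk1b the lymphoid share was lower, 23.7, 38.5 and 35.8%, beside 61.2, 73.7 and 62.2% in the Malat1-rich and 69.8, 82.6 and 83.5% in the comparison barcodes. Median depths before thinning were 2463.5, 2556 and 3387.5 UMIs in lymphoid barcodes.

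Markers of several immune and endothelial cell types had few UMIs in the Malat1-rich barcodes. The smooth muscle or pericyte, plasma cell and fibroblast lists were at like levels in the 3 libraries. The erythroid list and the list of epididymis, prostate and seminal vesicle genes were not. The Malat1-rich barcodes held 3365316, 656268 and 188155 UMIs, so at an equal level fewer markers would show a UMI in the knockouts. T or NK cell markers had 42, 8 and 0 UMIs and endothelial markers 37, 2 and 0. Whether their levels differed between libraries was not tested. In the Cab39l knockout 0 of 17 T or NK cell markers and 0 of 11 endothelial markers had a UMI, and only 1 of 11 B cell markers did, with 1 UMI. The Lpar6 knockout had 2 of 17 T or NK markers, 2 of 11 endothelial markers and 7 of 11 B cell markers (26 UMIs), with Cd79a and Cd3e at 0. In wild type 10 of 11 B cell markers were present, with 371 UMIs (0.0110% of all, against 0.0466% in the comparison barcodes), 12 of 17 macrophage or dendritic cell markers with 275 UMIs, and 7 of 9 erythroid markers with 1102 UMIs (50 and 11 in the knockouts). Of the wild-type B cell UMIs 182 lay in the low-mitochondrial barcodes and 189 in the high-mitochondrial ones. Per UMI the list was more frequent in the first, where it made up 0.203% of UMIs other than Malat1 and mitochondrial ones, against 0.0107% in the high-mitochondrial ones. In that small group of 42 wild-type barcodes their part in the other values was not tested. The smooth muscle or pericyte list made up 0.0315, 0.0299 and 0.0266% of UMIs in the 3 libraries, against 0.0252, 0.0177 and 0.0168% in the comparison barcodes. In both knockouts its UMIs came from Mylk, Rgs5 and Notch3, with the contractile genes Acta2, Myh11, Tagln and Des at 0. The plasma cell list made up 0.0357, 0.0306 and 0.0244%, against 0.0387, 0.0282 and 0.0342%. In the Lpar6 knockout its 201 UMIs came from Jchain, Xbp1 and Sdc1. Mast cell or basophil markers had 399, 86 and 13 UMIs, and neural or glial markers 384, 71 and 19. Fibroblast collagens Col3a1, Col6a1, Col6a2 and Col6a3 were at 0 in all 3 libraries, and the fibroblast list's 0.0729, 0.0646 and 0.0819% came mostly from Gsn, which epithelia also express. The list of epididymis, prostate and seminal vesicle genes had 151, 7 and 182 UMIs, and made up 0.0967% of UMIs in the Cab39l knockout, below the 0.219% of its comparison barcodes.

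**Figure D5:**
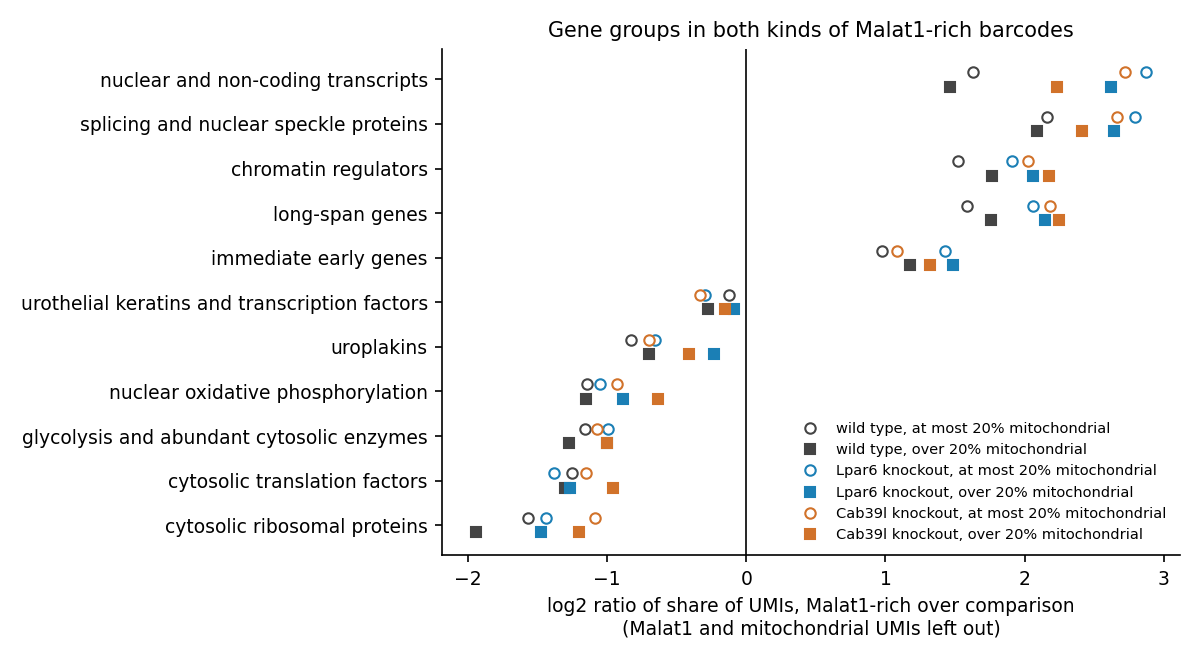
Log2 ratio (x axis) of the share of UMIs, Malat1 and mitochondrial ones left out, that each of 11 gene lists (y axis) took in Malat1-rich over comparison barcodes, by library (colour) and for barcodes at or below 20% mitochondrial UMIs (open circles) and above it (squares). Non-coding, splicing, chromatin, long-span and immediate early genes lie right of 0 in both kinds of every library, and the other 6 lists lie left of it.

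The low- and high-mitochondrial kinds were set beside each other by the shares of the lists. With Malat1 and mitochondrial UMIs taken out of the totals, splicing genes made up 2.81% of the low-mitochondrial and 2.67% of the high-mitochondrial barcodes in wild type, 2.99 and 2.70% with the Lpar6 knockout, and 2.74 and 2.30% with the Cab39l knockout. The comparison barcodes had 0.627, 0.432 and 0.431%. Barcodes that also exceeded 20% mitochondrial UMIs but held under 3% Malat1 (326, 637 and 985 barcodes) had 1.27, 0.775 and 0.827%, between the Malat1-rich and the comparison barcodes. Ribosomal protein genes made up 9.86 and 7.61%, 13.2 and 12.8%, and 16.7 and 15.4% in the low and high kinds of the 3 libraries, against 29.3, 35.7 and 35.4% in the comparison barcodes and 13.8, 23.2 and 27.6% in the high-mitochondrial ones low in Malat1. Uroplakins made up 0.546 and 0.598%, 0.751 and 1.01%, and 0.696 and 0.850%, below the 1.02, 2.01 and 1.54% of those same barcodes. The fibroblast list made up 0.0823 and 0.135%, 0.0481 and 0.156%, and 0.0426 and 0.218% in the low and high kinds.

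Few single genes parted the kinds. Only 304 genes had enough UMIs in both kinds of all 3 libraries, and at 1.5-fold or more in every library 1 was higher in the low-mitochondrial kind (0.329% of those measured) and 7 were lower (2.30%). The higher one was AY036118, a transcript that resembles ribosomal RNA. Among the lower ones were Gsn, Ptprf, Ctsd, Sgpl1, Eef2 and Sorl1. Gsn, which encodes the actin-severing protein gelsolin, had log2 ratios of -0.94, -1.79 and -2.33, and Ctsd, the lysosomal protease cathepsin D, -1.02, -1.32 and -1.78. All 34 splicing genes considered, 23 were measured here and 0 passed in either direction.

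Clustering of the 772 barcodes without Malat1, mitochondrial and ribosomal genes gave 3 clusters, none of which could be named from the marker lists. Cluster 0 held 350 barcodes, of which 337 were wild type, and 336 of them exceeded 20% mitochondrial UMIs. Cluster 1 held 319 barcodes, 76, 188 and 55 from the 3 libraries, and 147 exceeded 20%. It was led by Zfp990, Gm47283 and the fatty acid binding protein gene Fabp4. Cluster 2 held 103 barcodes, 98 of them wild type, and its leading genes mixed early response genes (Atf3, Nr4a1, Fosb, Dusp1) with the antigen presentation gene Cd74 and the antibody light chain Igkc. In wild type, Cd74 had 169 UMIs in 32 barcodes, but most lay in a few of them. The highest held 42, 39, 31 and 23 UMIs, and the next held 3. The clusters followed the libraries closely, so with 1 library per group a cluster may stand for a library.

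The targeted genes were read within the Malat1-rich barcodes first. Lpar6, a receptor for lysophosphatidic acid, had 73 UMIs in wild type (21.7 CPM), 0 in its own knockout and 12 with the Cab39l knockout (63.8 CPM, interval 33.0 to 111). A count of 0 allows up to 5.62 CPM there. Cab39l, a scaffold of the LKB1 kinase complex, had 332 UMIs in wild type (98.7 CPM, 88.3 to 109.9), 75 with the Lpar6 knockout (114 CPM, 89.9 to 143) and 15 in its own knockout (79.7 CPM, 44.6 to 131), so no loss of it was detectable at this depth. The comparison barcodes had 107, 93.7 and 31.8 CPM of Cab39l. The labels do not give the deleted part, and 3' tags outside it would check nothing.

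Against wild type, within the Malat1-rich barcodes, 6388 genes were measured for the Lpar6 knockout, of which 296 (4.63%) were at least 2-fold higher and 224 (3.51%) at least 2-fold lower. For the Cab39l knockout 6348 were measured, with 519 (8.18%) higher and 555 (8.74%) lower. Both comparisons share the wild-type library and neither has a replicate. The Malat1-rich barcodes held 3365316 UMIs in wild type, 656268 with the Lpar6 knockout and 188155 with the Cab39l knockout, so a gene near the minimum for being measured had few knockout molecules, and counting error alone can carry such a gene past 2-fold. These counts therefore do not give the number of genes that differ, least of all for the Cab39l knockout. With at least 200 UMIs over both libraries in place of 50, 91 of 2671 genes were higher and 78 lower in the Lpar6 knockout, and 139 and 150 of 2287 in the Cab39l knockout. Of the 520 genes of the first, 39 were also 2-fold apart in the same direction in the comparison barcodes, and of the 1074 of the second also 39. The share of all measured genes so far apart in the comparison barcodes was not counted. These overlaps thus do not show which differences are particular to the Malat1-rich barcodes. The make-up of the class differed between libraries, since 91.8% of the wild-type Malat1-rich barcodes were of the high-mitochondrial kind. Within the high-mitochondrial kind alone 112 of 6144 measured genes were higher and 477 lower in the Lpar6 knockout. In the Cab39l knockout 361 of 5987 were higher and 1031 lower. Within the low-mitochondrial kind these were 64 and 39 of only 1150, and 35 and 21 of only 434. The balance of higher and lower genes thus changed with the kind of barcode, but over gene sets of very different size. It also changed with the scaling, since TMM factors gave 123 higher and 395 lower genes for the Lpar6 knockout (23.7% of the genes apart were higher, against 56.9%) and 286 and 801 for the Cab39l knockout (26.3% against 48.3%).

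Several of the genes farthest apart between the libraries rested on few molecules. The 5 highest in the Lpar6 knockout were Meg3 (log2 7.73), Gm47283 (3.56), Fabp4 (3.08), Dmtn (2.72) and Ly6k (2.55). Dmtn, an actin-bundling protein of the membrane skeleton, had 32 UMIs in 28 Lpar6 knockout barcodes against 22 in 22 wild-type ones, and Ly6k, of the Ly6 surface protein family, 81 in 54 against 68 in 55. The lowest were Atmin (-3.38), Nfix (-2.61), Tmem2 (-2.60), Lyz2 (-2.49, at the floor of 3 counts, since the knockout had 0) and Thbs1 (-2.45). Nfix, a transcription factor of the nuclear factor I family, had 142 UMIs in 113 wild-type barcodes and 4 in 4 Lpar6 knockout ones, and Atmin, a zinc-finger transcription factor, 85 in 80 against 1. Among the highest in the Cab39l knockout were Meg3 (8.44), Sbp (4.43), Spink1 (4.37) and Gm10076 (2.10), of which Sbp, a secreted spermine-binding protein of the prostate, had 38 of its 52 UMIs in 1 barcode. Its lowest were Impad1 (-3.22), Sec14l1 (-3.19), B4galt1 (-2.84), Efcab14 (-2.79) and Hba-a2 (-2.78). Sec14l1 had 190 UMIs in wild type and 1 in the Cab39l knockout.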

How the data were processed

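The values the authors deposited are whole UMI counts per gene and barcode, with no normalization. Cell Ranger 3.0.2 and mm10 appear in the submitters' processing notes. Neither the annotation release nor the treatment of intronic and antisense reads is given in the sources used here. In all 31053 genes are listed, with 8085, 8293 and 9406 barcodes (wild type, Lpar6 knockout, Cab39l knockout), with 101977647, 139250807 and 175075246 UMIs. Spans, exons, biotypes and transcripts come from GENCODE vM21 (30934 genes matched by identifier).

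The members and lists were chosen with earlier results of these data known. UMIs were summed per library and group and scaled to CPM. Ratios are log2 of (CPM + 1), and a side with 0 counts was set to 3 counts over the group. Malat1, Cd79a, Cd3e and Hbb-bs were left out of counts of genes apart. With 1 library per group and barcodes that are not replicates, no test was run. Shares have exact 95% binomial (Clopper-Pearson) and levels exact 95% Poisson intervals. Doublets were kept. Scrublet's own threshold marked 1, 0 and 0 barcodes and so did not work, and leaving out the top 6% of scores was an alternative. The Malat1-rich barcodes were clustered with the Leiden method at a resolution of 0.5 on 20 components, 15 neighbours and 1500 variable genes. Named were Malat1, Neat1, Meg3, Lncpint, both targeted genes, the 12 genes highest and the 12 lowest by smallest ratio, the list members of highest level, the 5 highest and 5 lowest of each knockout, the leading genes of clusters and the genes of the thinned shares. Psca, the collagens, AY036118 and the genes named with it fall outside this rule and were chosen after their values were seen. Some genes that the rule takes are not reported here. Alternatives changed the thresholds, depth and kind of comparison, doublets, weights, scaling, pseudocount and filters. The alternatives by mitochondrial kind, by uroplakin share, by exonic length and without mitochondrial UMIs were chosen after seeing the data. The steps were tested on simulated data, with scanpy 1.11.5, leidenalg 0.10.2, pandas 2.3.3, scipy 1.17.1, numpy 2.4.6 and matplotlib 3.10.9 on Python 3.11.15.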

Additional observations from a re-analysis of the deposited data

Results flagged for a closer look

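The median mitochondrial share of the Malat1-rich barcodes lay above that of the comparison barcodes in wild type (33.0% against 7.68%) and in the Cab39l knockout (8.08% against 6.24%) and below it in the Lpar6 knockout (5.71% against 6.29%). The difference between libraries was not tested.

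Among the barcodes with fewer than 500 genes, which the comparisons do not use, 4 of 1537 in wild type held at least 10% Malat1 (0.260%, exact 95% binomial interval 0.0710 to 0.665), beside 2 of 1074 in the Lpar6 knockout and 0 of 1095 in the Cab39l knockout, which allows up to 0.336%.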

How the results depend on the processing

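Of 120 alternative values, 59 stayed within their error or within 1.5 times the count, 57 moved further and 4 changed sign. The causes were not tested. The Malat1-rich share of wild type, Lpar6 knockout and Cab39l knockout was 29.3, 9.13 and 4.04% from 5% Malat1 and 0.153, 0.499 and 0.0602% from 20%, where the Lpar6 knockout was highest. It was 6.37% in wild type from 200 genes and 0.495% in the Cab39l knockout from 1000 genes. The count of higher genes (1141) was 751 against shallow comparison barcodes, 286 with TMM factors, 2761 without Malat1 and mitochondrial UMIs, 658 with a pseudocount of 10, 1891 at 1.5-fold and 1799 in at least 2 libraries. All 286 were among the 1141, which was fixed in advance because TMM factors lowered every log2 ratio. The count of lower genes (701) was 401, 1561, 211, 1198 and 1115 under these settings other than the pseudocount, 230 from 20% Malat1, 352 with at most 20% mitochondrial UMIs in both groups and 337 with low-mitochondrial members only. Of the genes apart 61.9% were higher, with TMM factors 15.5%, without Malat1 in the totals 74.5% and without Malat1 and mitochondrial UMIs 92.9%. The middle log2 ratio of mitochondrial UMIs (1.66) was reversed from 20% Malat1 (-1.23), against shallow barcodes (-0.12), with at most 20% mitochondrial UMIs in both groups (-0.34) and in low-mitochondrial members (-0.46), and was 2.23 in high-mitochondrial members and 1.02 as a mean over barcodes. Against shallow barcodes the uroplakin ratio was -0.47 (from -1.06) and the ribosomal one -1.36 (from -1.98). The span difference (2.09) was 1.42 from 20% Malat1, 2.15 from 1000 genes, 1.85 against shallow barcodes, 2.03 with at most 20% mitochondrial UMIs, 2.11 without top doublet scores, 2.14 and 2.01 in high- and low-mitochondrial members, 1.95 as a mean over barcodes and 2.56 by exonic length. Within the Malat1-rich barcodes, higher and lower genes of the Lpar6 knockout were 91 and 78 from 200 UMIs, 123 and 395 with TMM factors, 112 and 477 in the high- and 64 and 39 in the low-mitochondrial kind. Those of the Cab39l knockout were 139 and 150, 286 and 801, 361 and 1031, and 35 and 21. The genes measured were 6144 and 5987 in the high-mitochondrial kind, but only 1150 and 434 in the low-mitochondrial kind. Resolution 1 gave 8 clusters in place of 3. Restriction to urothelial-like clusters was not run, because no cluster could be named. No paired analysis was possible because each group has 1 library. Depth limits the Cab39l knockout values most, which rest on 188155 UMIs.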
